A study of Drosophila melanogaster with 9 samples.

Results

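The maternal Toll to Dorsal pathway is described here by 10 genes, Tl, spz, dl, cact, tub, pll, ea, snk, gd and ndl. They are the rows of a table of 15682 genes whose FlyBase identifiers carry these symbols, and all 10 were found. The rule of choice used these symbols only, although earlier results of these data were known when the list was made. Expression was measured by RNA sequencing of stage 5 Drosophila melanogaster embryos in 9 libraries, 3 each from oreR (wild type) and from embryos labelled ataxin-7 or non-stop. The embryos were collected for 2 h, aged for 1 h at 25 °C and sorted by hand, and the replicates were biological. Ataxin-7 (Atxn7) and Non-stop (not) are subunits of the deubiquitinase module of the SAGA co-activator, and the study compared embryos mutant for either gene with wild type. The labels give neither the alleles nor the genotype of the mothers. The genotype tags of ataxin-7 replicates 2 and 3 read ataxin-8 and ataxin-9, and the titles, which name ataxin-7, were followed.

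The pathway sets the dorsoventral axis. The mother supplies its components: the serine protease Nudel (ndl) acts at the top of a cascade in the space around the embryo, in which Gastrulation defective (gd) cleaves Snake (snk), Snake cleaves Easter (ea), and Easter cleaves the ligand Spätzle (spz). Cleaved Spätzle binds the receptor Toll (Tl) on the ventral side, the adaptor Tube (tub) and the kinase Pelle (pll) carry the signal, the inhibitor Cactus (cact) is degraded, and the transcription factor Dorsal (dl) enters ventral nuclei. There it activates genes of the mesoderm and the neuroectoderm and represses genes of the dorsal side. RNA sequencing of whole embryos reads transcripts, not the cleavage of these proteins or the position of Dorsal.

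Libraries held between 74.8 M and 90.0 M reads (megareads) for oreR and ataxin-7 and between 36.9 M and 39.3 M for non-stop. All oreR and ataxin-7 libraries belonged to experiment 1013 and all non-stop libraries to experiment 1190, so the non-stop genotype and its experiment cannot be told apart. Transcripts of not stood at 52.3, 53.5 and 56.7 RPKM (reads per kilobase and megaread) in oreR and at 0.608, 0.662 and 1.11 in non-stop. Atxn7 stood at 18.0, 19.1 and 19.8 RPKM in oreR and at 21.9, 25.5 and 28.0 in the libraries labelled ataxin-7, so its transcript was not lower in these and gave no check of the label. Ataxin-7 replicate 1 stood apart from replicates 2 and 3 of its group (r = 0.922 and 0.905 over 7361 genes) and nearer to the non-stop libraries (r between 0.953 and 0.960). Results for ataxin-7 are therefore given with and without it. Replicate 3 of oreR also differed a little from the other oreR libraries (r = 0.983 and 0.988). Because whole embryos were sequenced, fewer cells of a type and less RNA per cell cannot be told apart.

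The range over the 9 libraries differed widely among the 10 genes. The highest value of ndl, ea, snk, cact and Tl was 1.42, 1.51, 1.54, 1.63 and 1.76 times the lowest. The ratio for pll was 1.90. It reached 3.79 for tub, 7.49 for spz, 8.60 for gd and 44.5 for dl. For snk, pll, tub, spz, gd and dl the lowest library was oreR replicate 1, and the highest was ataxin-7 replicate 1 or a non-stop library.

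**Figure D1:**
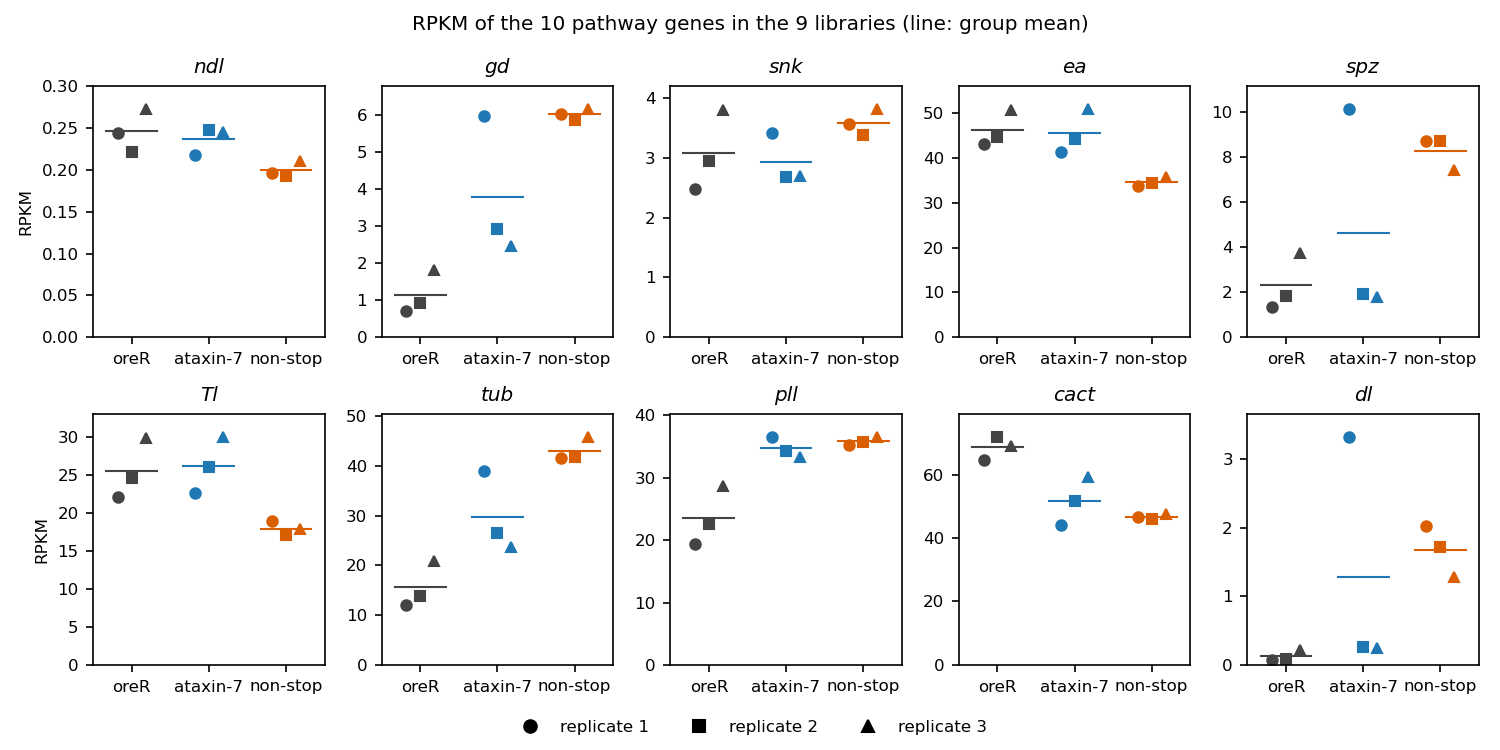
RPKM (y axis, from 0, scaled for each gene) of the 10 pathway genes in each library, grouped by genotype on the x axis; marker shapes give the replicate and lines the group mean. In gd, spz, tub and dl, ataxin-7 replicate 1 sits above replicates 2 and 3 (for dl 3.33 against 0.259 and 0.249 RPKM), while Tl, ea and cact are lower in all 3 non-stop libraries than in any oreR library.

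Among the proteases of the cascade, gd lay above oreR in all mutant libraries, and ea fell in non-stop. The protease gene snk passed the test in no comparison, and ndl was too low to be tested. The gene ndl lies on chromosome 3L (positions 6593938 to 6603366 of the BDGP6 genome, minus strand), and its protein starts the cascade from the egg covering. Its RPKM was 0.244, 0.221 and 0.273 in oreR, 0.217, 0.248 and 0.246 in ataxin-7, and 0.196, 0.193 and 0.211 in non-stop, from 71 to 206 reads per library. The non-stop values lay below the oreR values, by a ratio of means of 0.812, but ndl did not reach 1 RPKM in any library and was left out of the test.

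The gene gd lies on chromosome X (11985154 to 11987764, minus strand) and encodes the protease that cleaves Snake. It stood at 0.717, 0.920 and 1.802 RPKM in oreR, at 5.97, 2.93 and 2.46 in ataxin-7, and at 6.02, 5.86 and 6.17 in non-stop. Both mutant groups lay wholly above oreR, and ataxin-7 replicate 1 was at the level of non-stop. The difference of mean log2(RPKM + 1) from oreR was 1.12 in ataxin-7 (SE 0.33, limma adjusted p = 0.0448) and 1.74 in non-stop (SE 0.18, adjusted p = 8.72e-05). Without ataxin-7 replicate 1 the former was 0.81, with an adjusted p of 0.0163 in a range of 0.0137 to 0.165 over the alternatives. Of the oreR libraries, only replicate 3 reached 1 RPKM, so gd was tested largely because of its level in the mutants. In a limma fit that took every gene whatever its level, its adjusted p was 0.0989 in ataxin-7 (not called) and 0.000725 in non-stop.

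The gene snk lies on chromosome 3R (13040165 to 13042770, minus strand) and encodes the protease that cleaves Easter. Its RPKM was 2.48, 2.95 and 3.80 in oreR, 3.42, 2.68 and 2.70 in ataxin-7, and 3.57, 3.38 and 3.82 in non-stop, and the 3 groups overlapped. The log2 difference from oreR was -0.04 in ataxin-7 (95% interval -0.54 to 0.45) and 0.18 in non-stop (-0.13 to 0.50). These intervals leave room for changes of either sign. Without oreR replicate 3, snk was called higher in non-stop (log2 difference 0.31, adjusted p = 0.012, the lowest of a range up to 0.808), and its sign turned negative under quantile normalization and under centring by gene length.

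The gene ea lies on chromosome 3R (15328729 to 15330408, plus strand) and encodes the protease that produces the active ligand. It stood at 43.2, 44.8 and 50.8 RPKM in oreR, at 41.5, 44.2 and 51.0 in ataxin-7, and at 33.8, 34.4 and 35.7 in non-stop. Values of oreR and ataxin-7 interleaved, with a log2 difference of -0.02 (95% interval -0.29 to 0.24), and the non-stop values were the lowest 3 of the 9. The fall in non-stop was -0.40 against oreR (SE 0.07, adjusted p = 0.00135), a ratio of means of 0.749.

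The ligand and the receptor moved in opposite directions in non-stop. The gene spz lies on chromosome 3R (27064990 to 27070070, minus strand). Its RPKM was 1.35, 1.81 and 3.72 in oreR, 10.1, 1.92 and 1.77 in ataxin-7, and 8.69, 8.69 and 7.40 in non-stop. A single ataxin-7 library exceeded every non-stop library, and the other ataxin-7 libraries lay within the range of oreR. Against oreR, spz rose in non-stop by 1.55 on the log2 scale (SE 0.25, adjusted p = 0.000818), a ratio of means of 3.60. In ataxin-7 the difference was 0.51 (95% interval -0.91 to 1.92) and did not pass the test, and without replicate 1 its sign turned to -0.15.

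The receptor gene Tl lies on chromosome 3R (26799041 to 26842403, plus strand). It stood at 22.1, 24.5 and 29.8 RPKM in oreR, at 22.5, 26.0 and 30.0 in ataxin-7, and at 18.8, 17.0 and 17.9 in non-stop. The 3 values of ataxin-7 followed those of oreR closely, and all 3 non-stop values lay below both groups. The fall in non-stop against oreR was -0.47 (SE 0.11, adjusted p = 0.00571), a ratio of means of 0.704. The difference between ataxin-7 and oreR was 0.04 (95% interval -0.34 to 0.42), and its sign changed with the scaling.

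Downstream of the receptor, both the adaptor and the kinase rose in both mutants. The gene tub lies on chromosome 3R (4387742 to 4389813, plus strand). Its RPKM was 12.1, 13.8 and 20.8 in oreR, 38.9, 26.6 and 23.7 in ataxin-7, and 41.6, 41.9 and 45.9 in non-stop, so the 3 groups did not overlap. It rose by 0.89 on the log2 scale in ataxin-7 (SE 0.26, adjusted p = 0.0408) and by 1.45 in non-stop (SE 0.18, adjusted p = 0.00022). Without ataxin-7 replicate 1 the first value was 0.69, with an adjusted p of 0.0251 in a range of 0.0124 to 0.145 over the alternatives. Between the mutants the difference of 0.55 did not pass the test (95% interval 0.09 to 1.01, adjusted p = 0.0692).

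The gene pll lies on chromosome 3R (27251131 to 27253182, minus strand). It stood at 19.3, 22.6 and 28.7 RPKM in oreR, at 36.6, 34.3 and 33.4 in ataxin-7, and at 35.2, 35.7 and 36.5 in non-stop. All 6 mutant values exceeded the oreR values, and the mutants overlapped with each other. The rise was 0.56 in ataxin-7 (SE 0.15, adjusted p = 0.0348) and 0.60 in non-stop (SE 0.13, adjusted p = 0.00399). Here the ataxin-7 value did not rest on replicate 1, without which it was 0.52 (adjusted p = 0.0255, in a range of 0.00839 to 0.13). The whole of pll lies within the span of TfIIA-L on the other strand, although only 31 of its 1931 exon bases are also exon of TfIIA-L. Whether reads were counted by strand is not given in the sources used here, so reads of these genes may not have been separated. TfIIA-L itself had mean RPKM of 39.0, 34.6 and 39.9 in oreR, ataxin-7 and non-stop.

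The inhibitor and the transcription factor also moved in opposite directions in non-stop. The gene cact lies on chromosome 2L (16313036 to 16326207, minus strand), and its protein holds Dorsal in the cytoplasm. It stood at 64.7, 72.0 and 69.0 RPKM in oreR, at 44.2, 51.7 and 59.3 in ataxin-7, and at 46.5, 46.1 and 47.5 in non-stop. All 6 mutant values lay below all 3 oreR values. The fall was -0.41 in ataxin-7 (SE 0.12, adjusted p = 0.042) and -0.54 in non-stop (SE 0.05, adjusted p = 6.75e-05), ratios of means of 0.755 and 0.681. Without ataxin-7 replicate 1 the former was -0.30 (adjusted p = 0.0339, in a range of 0.0116 to 0.159 over the alternatives).

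The gene dl lies on chromosome 2L (17436830 to 17450364, minus strand). Its RPKM was 0.0748, 0.0874 and 0.216 in oreR, 3.33, 0.259 and 0.249 in ataxin-7, and 2.03, 1.71 and 1.28 in non-stop. These values rest on 79, 102 and 218 reads in oreR, on 3602, 308 and 253 in ataxin-7, and on 1129, 906 and 681 in non-stop. The oreR libraries were the lowest 3 of the 9, and ataxin-7 replicate 1 was 13.1 times the mean of replicates 2 and 3. The ratio of mean RPKM in non-stop to oreR was 13.3. With oreR, dl reached 1 RPKM only in the non-stop libraries, so under this minimum its call of higher was built in and is set aside in the counts below. In the limma fit without a minimum, which takes every gene whatever its level, its log2 difference was 1.24 (SE 0.12, adjusted p = 0.000347). The adjusted p ranged from 4.16e-05 to 0.0311 over the alternatives. All of these except the fit without a minimum kept the 1 RPKM minimum, so that range carries the same built-in direction. Against oreR, ataxin-7 was not tested for dl because only replicate 1 reached 1 RPKM.

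**Figure D2:**
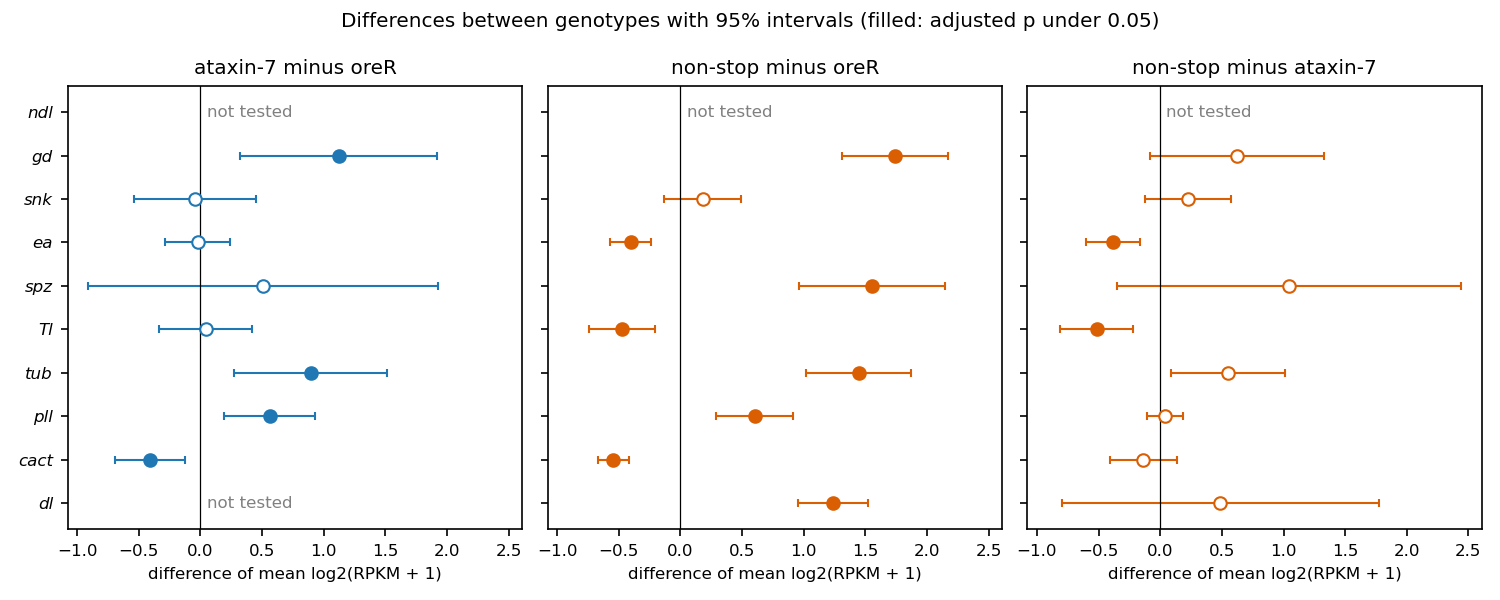
Difference of mean log2(RPKM + 1) (x axis) for each pathway gene (y axis) in the 3 comparisons, with 95% intervals from limma; filled points had an adjusted p under 0.05, and genes under the level for testing are marked as not tested. The point of dl against oreR rests on a gene that reached 1 RPKM in non-stop only. Against oreR, gd, tub and pll lie to the right of 0 and cact to the left in both mutants, and the widest interval in ataxin-7 is that of spz (-0.91 to 1.92).

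Counted over the list, ataxin-7 against oreR had 4 called genes of 8 tested, 3 higher (gd, tub, pll) and 1 lower (cact). In oreR, gd reached 1 RPKM in replicate 3 only, so it passed the minimum through ataxin-7. In the limma fit without a minimum its adjusted p was 0.0989, and none of the 4 was called. Called means a limma p-value under 0.05 after Benjamini-Hochberg adjustment over all genes tested, and a gene was tested if it reached 1 RPKM in at least 3 libraries of the fit. Of all 7049 genes tested, 32.4% were called, 16.0% higher and 16.4% lower. The median log2 difference was 0.27 over the pathway genes and 0.05 over all genes. Without ataxin-7 replicate 1 the count was again 4 of 8 (3 higher, 1 lower), beside 51.4% of 6893 genes, 21.0% higher and 30.4% lower. The medians were then 0.09 over the pathway genes and -0.025 over all genes. The count depended on other libraries more than on ataxin-7 replicate 1. It was 0 without ataxin-7 replicate 2, without oreR replicate 1 or without oreR replicate 2, 2 without oreR replicate 3, and 3 without ataxin-7 replicate 3. In the same order, 8.53%, 4.53%, 2.93%, 26.1% and 29.0% of all genes tested were called. In those limma fits with 0 calls, 4, 3 and 4 of the 8 genes had an unadjusted p under 0.05. The share of all genes with such a p is not given here, so these counts add no support to the calls. Under the exact permutation test of 3 against 3 libraries the smallest p is 0.1, so no gene could pass 0.05. The genes gd, tub, pll, cact and dl reached 0.1. The share of all genes that reach it is not given here, so this list adds no support to the calls.

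In non-stop against oreR, 7 of the 8 pathway genes that reached 1 RPKM in both groups were called, 4 higher (spz, gd, tub, pll) and 3 lower (Tl, ea, cact), and with dl the count was 8 of 9. This share lies near that of all genes, of which 82.7% of 7280 were called, 47.7% higher and 35.1% lower. The shares and medians of all genes, here and below, also include genes that reached 1 RPKM in 1 group only. Here a group counts as reaching 1 RPKM if any of its libraries did. In oreR, gd did so in replicate 3 only, so it passed the minimum through non-stop. In the limma fit without a minimum its adjusted p was 0.000725. The medians were 0.39 over the 8 pathway genes and 0.17 over all genes, and the latter moved to 0.01 under median-of-ratios scaling. No called direction turned under any scaling or with any library left out. Leaving out a non-stop library took dl below the level for testing. Leaving out any single library gave between 7 and 9 called genes, dl included, beside 75.8% to 87.2% of all genes.

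Between non-stop and ataxin-7, 2 of 9 tested genes were called, Tl by -0.52 (SE 0.12, adjusted p = 0.0254) and ea by -0.38 (SE 0.09, adjusted p = 0.0252), both lower in non-stop. Of all 6968 genes, 32.2% were called, 15.5% higher and 16.7% lower. Without ataxin-7 replicate 1, dl reached 1 RPKM in non-stop only, and 7 of the other 8 genes were called, 4 higher (spz, gd, tub and snk) and 3 lower (Tl, ea and cact), beside 81.1% of 6844 genes, 52.7% higher and 28.4% lower. For spz the difference then was 1.70 (adjusted p = 3e-06, in a range up to 0.462 over the alternatives), in place of 1.05 (adjusted p = 0.2) with all libraries. The kinase pll was not called either way (0.04 with all libraries, 95% interval -0.10 to 0.19). Leaving out ataxin-7 replicate 3 left 1 called gene (ea), and leaving out ataxin-7 replicate 2 or any non-stop library left 0, with 2 genes at an unadjusted p under 0.05 in each of these limma fits. Of all genes, 20.9% were called without ataxin-7 replicate 3, 13.1% without ataxin-7 replicate 2, and 10.9% to 11.3% without a non-stop library. The share of all genes with an unadjusted p under 0.05 is not given here either. The 3 comparisons share libraries, so their calls are not independent of each other.

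**Figure D3:**
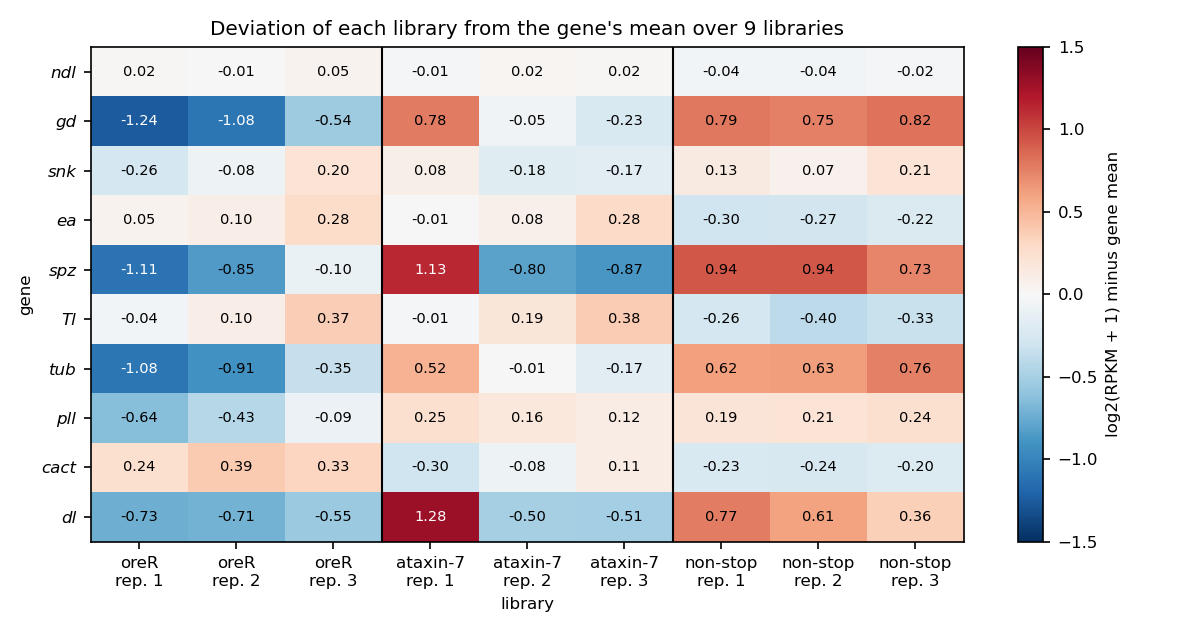
Deviation of each library (columns) from the mean of each gene (rows) over 9 libraries, in log2(RPKM + 1), with the value printed in each cell and red for higher. The rows gd, spz, tub and dl are red in ataxin-7 replicate 1 and in the 3 non-stop libraries, and blue in the oreR libraries.

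The genes with the widest ranges, dl, spz, gd and tub, also differed most between replicates of a genotype. In ataxin-7, replicate 1 over the mean of replicates 2 and 3 was 13.1 for dl, 5.50 for spz, 2.21 for gd and 1.55 for tub, but 0.805 for Tl, 0.797 for cact and 0.872 for ea. In oreR, replicate 3 over the mean of replicates 1 and 2 was 2.66 for dl, 2.36 for spz, 2.20 for gd and 1.61 for tub, and also above 1 for Tl (1.28), ea (1.16) and cact (1.01). For ataxin-7 replicates 2 and 3, the mean over that of oreR was 2.35 for gd, 2.01 for dl, 1.61 for tub and 1.44 for pll, and 0.802 for spz. These ratios describe single libraries and carry no test.

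Markers of maternal and of zygotic RNA in the same libraries moved with these values. Summed over 14 genes that mark maternal RNA, such as bcd, osk and smg, RPKM ranged from 201 to 397 in oreR (highest in replicate 3), from 540 to 1254 in ataxin-7 (highest in replicate 1), and from 960 to 1076 in non-stop. Summed over 17 early zygotic genes, such as Kr, ftz and halo, it ranged from 3730 to 3981 in oreR, from 516 to 2457 in ataxin-7 (lowest in replicate 1) and from 323 to 402 in non-stop. Of 13 maternal markers that reached 1 RPKM in both groups, 5 were called higher in ataxin-7 (16.0% of all genes) and 11 in non-stop (47.7% of all genes), and none was called lower. Of these markers, exu reached 1 RPKM in oreR in replicate 3 only. Of the early zygotic markers, 12 of 17 were called lower in ataxin-7 (16.4% of all genes) and 17 of 17 in non-stop (35.1%). Median differences in ataxin-7 and non-stop were 1.73 and 2.29 for the maternal and -2.04 and -3.71 for the zygotic list. When ataxin-7 replicate 1 was left out, the medians in ataxin-7 were 0.59 and -1.47, with 6 of 13 maternal markers called higher (21.0% of all genes) and 17 of 17 zygotic markers called (51.4%), 15 lower and 2 higher (nullo and sisA). The part of these markers in the differences of the pathway genes was not tested. Markers of follicle cells and eggshell, tissues of the mother, were near 0: 7 of 17 had no read in any library, and their summed RPKM was between 0.727 and 1.18.

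The levels of the 10 genes can be compared only per length of transcript. The deposited RPKM divided reads by a length that for most genes was the genomic span with introns, and Tl has exons over only 5198 of its 43363 bp. On the deposited RPKM, Tl ranked 3 among the 10 genes in oreR and 5 in both mutants. The levels below take all reads as exon reads, so they depend on whether intron reads were counted. Per kilobase of exon (reads per kb of merged BDGP6 exons and megaread), cact was highest in oreR at 270 ± 14.4 (SD, n = 3) and Tl followed at 212 ± 32.8. After these came ea at 51.0, pll at 25.0, tub at 19.9, snk at 5.59, spz at 4.93, gd at 1.13, ndl at 0.282 and dl at 0.265. On this scale, the replicate ranges of pll and tub, of snk and spz, and of ndl and dl overlapped in oreR, so those neighbours in the order were not separated. In non-stop the order was cact (184), Tl (149), tub (55.2), ea (38.2), pll (38.0), spz (17.8), snk (6.52), gd (5.94), dl (3.53) and ndl (0.229), and the replicate ranges of ea and pll overlapped.

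**Figure D4:**
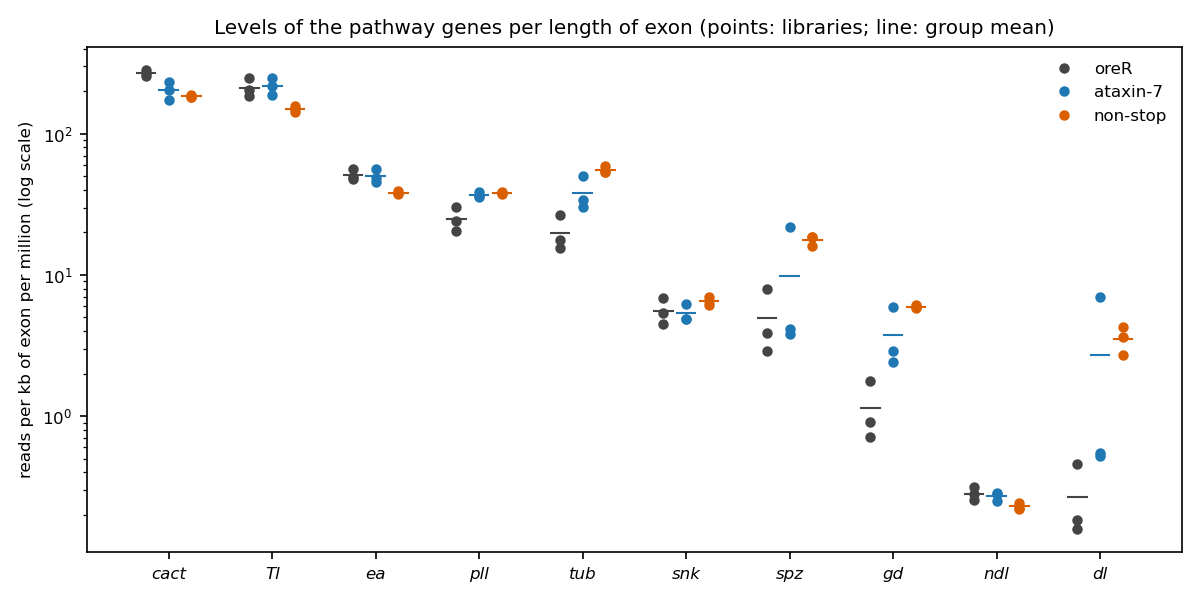
Reads per kilobase of exon and megaread (y axis, log scale) for the 10 pathway genes (x axis, ordered by the oreR mean), with a point for each library and a line for the group mean. The inhibitor cact and the receptor Tl are the highest in every group on this scale, which depends on whether intron reads were counted. The gene dl has the widest spread, from a mean of 0.265 in oreR to 3.53 in non-stop.

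Paired components of the pathway differed in balance on the same per-exon scale. For 100 units of cact there were 0.0618, 0.0650 and 0.167 units of dl in oreR, 4.03, 0.267 and 0.225 in ataxin-7, and 2.34, 1.99 and 1.45 in non-stop. For 100 units of Tl there were 1.58, 1.90 and 3.22 units of spz in oreR, 11.6, 1.90 and 1.52 in ataxin-7, and 11.9, 13.2 and 10.7 in non-stop. In both pairs, the highest ratios were those of non-stop and of ataxin-7 replicate 1. The adaptor and the kinase were closer in level, with 75.7, 73.6 and 87.5 units of tub for 100 of pll in oreR, 128, 93.5 and 85.5 in ataxin-7, and 142, 142 and 152 in non-stop. For 100 units of ea there were 1.49, 1.84 and 3.17 units of gd in oreR, 12.9, 5.94 and 4.32 in ataxin-7, and 16.0, 15.2 and 15.5 in non-stop. The lengths in the table differ from the BDGP6 models for tub (2569 against 2072 bp of span) and gd (2231 against 2611 bp), so their per-exon levels, unlike their changes, depend on the gene model. The levels in the ratios of dl to cact and of spz to Tl also depend on whether intron reads were counted.

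Other genes of the pathway were read from the same fits. Spn27A, the serpin that inhibits Easter, was steady within each genotype at 42.2, 45.3 and 43.7 RPKM in oreR, 72.5, 75.0 and 77.1 in ataxin-7, and 80.1, 81.3 and 78.4 in non-stop. The groups did not overlap with oreR, and Spn27A rose by 0.76 (adjusted p = 0.0023) and 0.86 (adjusted p = 6.72e-06). Myd88, which binds the receptor and Tube, rose from a mean of 5.00 RPKM in oreR to 10.3 in ataxin-7 and 19.7 in non-stop, by 0.93 (adjusted p = 0.0375) and 1.82 (adjusted p = 8.36e-05). The phosphatase-like gene mop, which promotes Toll signalling, rose by 0.81 and 1.06. In all, 3 of 5 tested inhibitor and adaptor genes were called in ataxin-7, all higher, and 5 of 5 in non-stop, 3 higher and 2 lower (wek and Pli), beside 32.4% and 82.7% of all genes.

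Among 8 regulators of Cactus and Dorsal with a row in the table, 4 were called in ataxin-7 (2 higher, 2 lower) and, of 7 that reached 1 RPKM in both groups, 7 in non-stop (3 higher, 4 lower). The shares over all genes were again 32.4% and 82.7%. The gene tamo, which acts in the nuclear import of Dorsal, was called higher in both (1.28 and 1.81). The co-repressor gro, which Dorsal needs for repression, was called lower in both (-0.40 and -0.47). The feedback inhibitor gene wntD was called lower in ataxin-7 (-2.35) and had 0.106, 0.178 and 0.401 RPKM in non-stop against 20.8, 19.5 and 10.4 in oreR. Of the genes of the egg chamber that place the cue, grk, the dorsal signal of the oocyte, rose from 1.47, 1.95 and 3.21 RPKM in oreR to between 11.8 and 13.5 in the 6 mutant libraries, by 2.10 and 2.13. It is also among the maternal markers above. Egfr, its receptor, was called lower in ataxin-7 (-1.45) and had 0.679, 0.739 and 0.573 RPKM in non-stop against 7.18, 7.38 and 6.13 in oreR. In total, 2 of 7 tested egg chamber genes were called in ataxin-7 (1 higher, 1 lower) and 6 of 6 that reached 1 RPKM in both groups in non-stop (4 higher, 2 lower). The sulfotransferase gene pip and its chaperone gene wbl, which act in follicle cells, had at most 43 and 18 reads in any library. If ataxin-7 replicate 1 was left out, the called genes in ataxin-7 were 3 of 5 adaptors and inhibitors (3 higher), 6 of 8 regulators (2 higher, 4 lower) and 4 of 7 egg chamber genes (3 higher, 1 lower), beside 51.4% of all genes.

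Of the genes of other Rel proteins, Dif, which lies near dl on 2L and acts in immunity, had 0.0206, 0.0252 and 0.0477 RPKM in oreR, 0.900 in ataxin-7 replicate 1, 0.0720 and 0.0634 in ataxin-7 replicates 2 and 3, and 0.579, 0.482 and 0.362 in non-stop. It was below the level for testing. Rel, the third member of the family, was called higher in non-stop (1.21, adjusted p = 1.57e-05) and not in ataxin-7 (0.77, adjusted p = 0.141).

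Genes that Dorsal activates and genes that it represses were both called lower in the mutants, as were the early zygotic markers. Counts here keep to genes that reached 1 RPKM in at least 1 library of both groups compared. A gene that did so in 1 group only had the direction of its call built in. This does not remove every such case. In ataxin-7, vnd reached 1 RPKM in replicate 3 only, and in non-stop so did Doc1 and Doc3. These genes passed the minimum through oreR, so the direction of their calls was largely built in too. Of the ventral targets, twi, a mesoderm determinant, stood at 111, 127 and 92.5 RPKM in oreR, 10.2, 33.1 and 46.5 in ataxin-7, and 3.63, 7.41 and 6.78 in non-stop. It fell by 2.07 and 4.03 on the log2 scale, and sna, its partner in the mesoderm, was called lower in both as well (adjusted p = 0.0231 and 4.39e-06). In this list, 3 of 4 genes were called in ataxin-7, all lower, and 3 of 3 in non-stop, twi and sna lower and fog higher. The remaining genes htl and stumps, active in the mesoderm, were under 1 RPKM in every non-stop library, and Mef2 was under 1 RPKM in every oreR library.

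Of the lateral targets, 6 of 6 were called lower in ataxin-7, among them rho (-2.17) and sog (-1.99). In non-stop only brk and SoxN reached 1 RPKM, and both were called lower (-3.88 and -4.02). There rho stood at 0.346, 0.623 and 0.716 RPKM against 15.6, 15.2 and 10.98 in oreR, and sog at 0.235, 0.529 and 0.604 against 13.7, 13.7 and 10.4. Of the genes that Dorsal represses, 4 of 6 were called lower in ataxin-7 and 6 of 6 in non-stop. For zen, a determinant of the dorsalmost tissue, the differences were -1.65 (adjusted p = 0.054, not called) and -3.00. The ligand gene dpp stood at 2.21, 2.42 and 1.96 RPKM in oreR and between 0.0937 and 0.926 in the 6 mutant libraries. Over all genes, 16.4% were called lower in ataxin-7 and 35.1% in non-stop. With replicate 1 of ataxin-7 left out, 4 of 4 ventral (3 lower, and fog higher), 6 of 6 lateral and 5 of 6 repressed genes were called in ataxin-7, the last 2 lists lower throughout, beside 30.4% of all genes called lower.

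**Figure D5:**
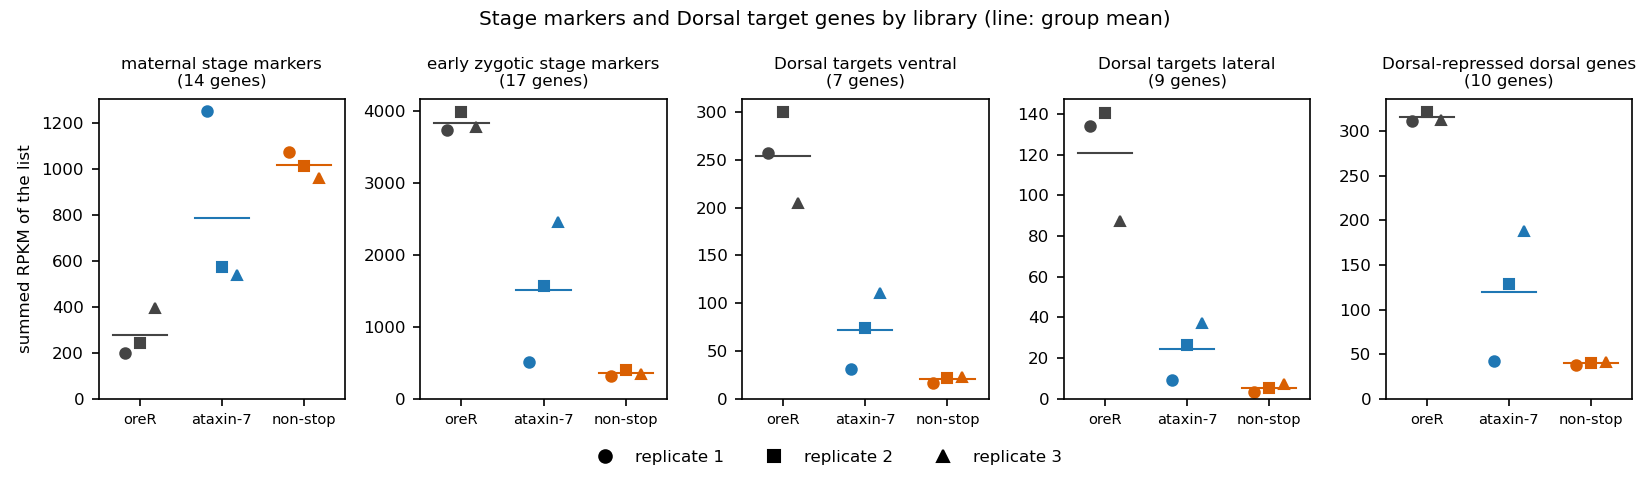
Summed RPKM (y axis, from 0, scaled for each list) of stage markers and of Dorsal target genes in each library, by genotype (x axis), with lines for the group mean and marker shapes for the replicate. Both stage lists and all 3 target lists place ataxin-7 replicate 1 nearest to non-stop; for the repressed list it is at 42.9 against 38.2 to 41.2 in non-stop and 312 to 322 in oreR.

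The genes with the most similar profile to each pathway gene were sought over the 9 libraries by the root mean square (RMS) difference of centred log2(RPKM + 1), among about 7020 genes. They were glob1 and cdm for Tl (RMS 0.06 for both), CG6073 and Paics for spz (0.14 and 0.17), and Ork1 and Agpat4 for dl (0.06 and 0.09). They were san and Tango11 for cact (0.03 and 0.04), AP-1gamma and CG9436 for tub (0.06 and 0.07), and CG12253 and Usp16-45 for pll (0.05 for both). They were CG34015 and CG10802 for ea (0.04 for both), timeout and pn for snk (0.07 and 0.08), CycB and CG13601 for gd (0.07 and 0.08), and Roc2 and ND-B22 for ndl (0.04 for both). Within the pathway, the nearest pairs were Tl with ea (0.09) and gd with tub (0.15), and dl was nearest to spz (0.31). The 9 libraries share 3 genotypes, so a small difference may reflect only the shared grouping, and for ndl, whose own spread was 0.03, the measure says little.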

How the data were processed

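Stage 5 embryos gave 9 stranded libraries in biological triplicate. The authors deposited RPKM values, 1 table of 15682 genes by 9 libraries. The submitters' processing notes name CASAVA 1.8.2, TopHat2 2.0.13, edgeR 3.14.0 and the build dm3, and the counting step is not given in the sources used here. The study paper at hand does not describe this experiment. Whole reads divided by a length and by a rescaled library size (factors 0.958 to 1.07) gave the deposited RPKM of 13800 of 13809 nonzero genes (99.9%), within a relative tolerance of 3e-13. Library totals are sums of those reads. That length lay within 5% of the genomic span for 83.1%, and within 5% of the summed exons for 10.6%, of 10678 intron-containing genes. For a gene of 1 kb, 3 reads came to 0.0341 to 0.0767 RPKM, which covers counting error only.

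Positions and exons are from BDGP6 (Ensembl release 115), not dm3, and identifiers were matched to symbols for 15002 genes. Tests used limma 3.58.1 in R 4.3.3 (lmFit, eBayes with trend, two-sided) on log2(RPKM + 1), which understates changes of low genes, with the 2 groups compared only, no covariate, genes with at least 1 RPKM in at least 3 libraries, and Benjamini-Hochberg adjustment over all of them at 0.05. Python 3.11.15 with pandas 2.3.3, scipy 1.17.1 and matplotlib 3.10.9 made the rest. Fits were checked on simulated data with the same spread for all genes and libraries. That check cannot show how the fits act where a library stands apart from its group, as ataxin-7 replicate 1 does. The alternatives were a pseudocount of 0.1, no filter, quantile normalization, median-of-ratios scaling, centring in 20 length bins, all 9 libraries in one fit, a replicate block, voom on the recovered reads and leaving out each library. Named genes were all 10 members, the targeted genes, chosen genes of each list with those of largest change, and the 2 nearest profiles per member. Members and lists were chosen with earlier results of these data known. Of 126 listed entries, 7 had no matched row and are not analysed here. Sequences were not used here.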

Additional observations from a re-analysis of the deposited data

How the results depend on the processing

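Of 361 values of single pathway genes under an alternative, 298 kept their direction and their side of the threshold, 39 kept the direction but lost the call, 10 gained a call, and 14 turned sign; no called value turned. In ataxin-7 against oreR the 4 called pathway genes became 2 after centring by gene length or median-of-ratios scaling, and 0 with no filter or with a replicate block (limma, 4 with an unadjusted p under 0.05 in each). Of all genes, 29.0%, 30.1%, 16.7% and 6.68% were called in these fits, in that order. Their shares at an unadjusted p under 0.05 are not given here, so those 4 genes add no support. Leaving out single libraries gave 0 to 4 pathway genes and 201 to 3541 genes in all, in place of 2285. In non-stop against ataxin-7 the 2 called genes became 4 under quantile normalization, 1 with voom and 1 with the replicate block, beside 37.0%, 25.9% and 19.8% of all genes. Leaving out single libraries gave 0 to 8 pathway genes and 749 to 5550 of all genes, in place of 2241. In non-stop against oreR no alternative moved the 8 called genes outside 7 to 9 (dl included), and 8 were called with the replicate block. The share of all genes called ran from 61.8% to 87.2% over these alternatives.

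The replicate block cut all calls to 471 in ataxin-7 against oreR and to 1383 in non-stop against ataxin-7. Same-numbered libraries did not all deviate together (correlations 0.02, 0.06 and -0.06 for ataxin-7 with oreR, -0.24, 0.11 and -0.11 for non-stop with oreR, 0.37, -0.12 and 0.44 for non-stop with ataxin-7). Libraries of different number reached -0.47 and 0.48 for non-stop with ataxin-7. With 3 libraries per group, these values cannot decide whether same-numbered libraries were handled together.

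The values that turned sign were all uncalled. In ataxin-7 against oreR, that of Tl (0.04) turned to -0.045 under median-of-ratios scaling and to -0.16 under quantile normalization, and ranged from -0.058 to 0.16 with libraries left out. With libraries left out, that of spz (0.51) ranged from -0.15 to 0.85, that of ea (-0.02) from -0.11 to 0.045, and that of snk (-0.04) from -0.15 to 0.079. In non-stop against oreR, that of snk (0.18) turned to -0.10 with length bins and to -0.044 under quantile normalization. In non-stop against ataxin-7, that of pll (0.04) turned to -0.033 with length bins, to -0.071 under median-of-ratios scaling and to -0.015 under quantile normalization. The cause was not tested. Where the RPKM minimum applied, it left ndl out of every test. It left dl out of ataxin-7 against oreR except in the fit of all 9 libraries. There 9 pathway genes were tested and 4 called, and dl was not among the 4.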
